A study of Mus musculus with 4 samples.

Results

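Calcium pumps of the P-type ATPase family keep the calcium ion concentration of the cytosol low. The sarco/endoplasmic reticulum pumps (SERCA, Atp2a genes) return calcium to the endoplasmic reticulum, and the plasma membrane pumps (PMCA, Atp2b genes) export it from the cell. In lymphocytes both kinds act against the calcium entry that follows antigen receptor signalling. H3K79me2 is histone H3 with 2 methyl groups on lysine 79. The enzyme DOT1L writes it as genes are transcribed, mostly towards their 5′ ends. The pump genes described here were chosen by name and number 5 of 21887 protein-coding genes in a RefSeq table of GRCm38.p6: Atp2a1 (SERCA1), Atp2a2 (SERCA2), Atp2a3 (SERCA3), Atp2b1 (PMCA1) and Atp2b4 (PMCA4).

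H3K79me2 was mapped by chromatin immunoprecipitation and sequencing (ChIP-seq) in double negative thymocytes of the C57BL/6 strain. Haematopoietic stem cells had been cultured on OP9-DL1 stromal cells, which present a Notch ligand, until they reached DN3, the stage of T cell receptor gene rearrangement. The medium held the cytokines IL-7 at 2 ng/mL and Flt-3L at 5 ng/mL. A single ChIP library came from cells cultured with DMSO, the vehicle (control), and a single one from cells cultured with A939572 (inhibitor), a compound that blocks SCD1, the desaturase that makes oleic acid. The comparison asks where the mark differs when oleic acid synthesis is blocked. The 2 input samples are not analysed here. With 1 library per condition no difference has a replicate check or a p-value, all comparisons are descriptions of these 2 libraries, and the read depth behind the peaks is unknown.

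Values are the authors' broad peaks, called per library. A gene's covered percent is the share of its body under peaks, and a gene is called marked at 50% or more. Most control peaks are weak: 0.643% of 124962 control peaks and 18.6% of 35018 inhibitor peaks had a q of at most 0.05. The lineage of the cells was checked on 18 T-lineage genes, of which 12 were marked with DMSO and 16 with A939572, against 5.47% and 26.1% of all coding genes. Counting peaks that passed q of 0.05 alone left 8 and 15 marked, against 1.33% and 19.6%. Among them Bcl11b, the commitment factor, was covered over 94.0% and 100%. Of the other markers none was marked with DMSO, and with A939572 1 of 13 OP9 feeder genes (Thbs1), 1 of 8 B cell genes (Blk), 2 of 8 myeloid genes (Cd68 and Fcer1g) and 0 of 6 megakaryocyte and platelet genes were marked. The myeloid share is close to the 26.1% of all coding genes. The part of other cells in the results below was not tested. Nor was the DN3 stage. Of the 18 T-lineage genes, Ptcra (18.1% and 47.1%) and Cd44 (16.4% and 13.6%) were marked in neither list, and Kit (55.3% and 100%) in both.

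Start windows of 300 bases, from 250 bases before to 50 after a RefSeq start site, were at hand for 4 of the 5 genes. They are shown because the peaks differ in how they meet these starts. Capitals mark matches, on either strand, to GGGCGG (a GC box), to CCAAT (the CCAAT box), to TATAAA (the TATA motif), to CCGGAAG (an ETS motif) or to CACGTG (an E-box). Matches that touch or overlap run together.
Atp2a3 (chr11:72960919-72961218, plus strand): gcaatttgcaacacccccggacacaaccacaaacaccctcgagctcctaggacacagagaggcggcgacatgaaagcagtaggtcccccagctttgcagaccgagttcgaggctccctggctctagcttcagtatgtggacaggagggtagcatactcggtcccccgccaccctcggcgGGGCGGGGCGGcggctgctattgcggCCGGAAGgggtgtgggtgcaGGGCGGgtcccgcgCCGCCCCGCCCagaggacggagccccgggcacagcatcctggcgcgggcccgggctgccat
Atp2b1, first of 2 starts (chr10:98914392-98914691, plus strand): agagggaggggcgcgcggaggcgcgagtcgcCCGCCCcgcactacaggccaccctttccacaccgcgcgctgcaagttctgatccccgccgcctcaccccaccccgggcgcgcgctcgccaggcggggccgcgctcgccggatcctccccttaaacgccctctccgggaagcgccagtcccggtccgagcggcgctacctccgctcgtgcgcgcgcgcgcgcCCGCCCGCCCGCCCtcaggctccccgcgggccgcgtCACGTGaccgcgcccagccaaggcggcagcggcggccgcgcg
Atp2b4 (chr1:133753698-133753997, minus strand): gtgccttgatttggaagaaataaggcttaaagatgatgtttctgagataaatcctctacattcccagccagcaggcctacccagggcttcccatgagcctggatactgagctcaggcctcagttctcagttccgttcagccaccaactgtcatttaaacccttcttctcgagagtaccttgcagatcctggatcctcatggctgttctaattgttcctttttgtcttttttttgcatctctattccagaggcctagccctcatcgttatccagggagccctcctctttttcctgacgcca
Atp2a1 (chr7:126463024-126463323, minus strand): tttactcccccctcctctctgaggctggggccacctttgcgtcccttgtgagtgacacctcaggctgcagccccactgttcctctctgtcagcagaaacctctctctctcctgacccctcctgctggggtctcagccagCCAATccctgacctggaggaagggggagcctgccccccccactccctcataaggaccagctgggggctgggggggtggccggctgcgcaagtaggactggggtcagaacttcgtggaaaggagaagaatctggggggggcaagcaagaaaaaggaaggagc

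The windows differed in CpG content. The first Atp2b1 window held 54 CpG dinucleotides, a number that 0.347% of 32851 RefSeq windows reach, and the Atp2a3 window held 25, which 18.4% reach. The Atp2b4 and Atp2a1 windows held 4 each, under the median of 7. Their GC content differed, at 47.7% for Atp2b4 and 62.3% for Atp2a1, against 68.3% for Atp2a3, 79.3% for the first Atp2b1 start and a median of 52.7% over all windows. GC boxes, present in 35.7% of all windows, occurred 5 times at Atp2a3 and 4 times at the first Atp2b1 start, and not at Atp2b4 or Atp2a1. Atp2a3 also held 1 ETS motif (8.86% of windows), the Atp2b1 window 1 E-box (7.15%) and Atp2a1 1 CCAAT box (37.4%). No TATAAA (13.6% of windows) was found in these 4 windows.

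With all deposited peaks, CpG content and peak cover did not run in parallel. In the inhibitor list the Atp2a3 and Atp2b4 windows, one rich and one poor in CpG, lay wholly under a peak. The peak over the Atp2b4 window was weak, with a −log10 q of 0.170. At q of at most 0.05 the Atp2a3 window alone was covered. For the first Atp2b1 start, whose window held the most CpG, the nearest inhibitor peak began 0.763 kb past it. Atp2b1 has another start 510 bp downstream, 0.253 kb from the same peak. No control peak touched any of the 4 windows. The nearest lay 1.39 kb from the start of Atp2a3, 1.57 kb from that of Atp2b1, 7.06 kb from that of Atp2a1 and 19.9 kb from that of Atp2b4. The Atp2b4 start lies 47.3 kb inside the gene model. No window was at hand for the 5′ edge of Atp2b4, so the CpG content there is unknown.

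The 5 genes held 21 control peaks and 18 inhibitor peaks. Control peaks covered 30.3% of their summed length of 307.7 kb and inhibitor peaks 54.1%. None of the control peaks had a q of at most 0.05, and their highest −log10 q was 0.136. Of the inhibitor peaks 3 passed, 1 each at Atp2a2, Atp2a3 and Atp2b1, with a highest −log10 q of 4.70. The authors' fold enrichment, a ratio to a background that is not stated, ran from 1.42 to 1.83 with DMSO and from 1.47 to 2.90 with A939572.

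By covered percent, 1 pump gene was marked with DMSO (Atp2b1), where 5.47% of coding genes were marked. In the inhibitor list 3 were marked (Atp2a2, Atp2a3 and Atp2b1), against 26.1% of coding genes. Cover with A939572 was higher by at least 25 percentage points at 3 pump genes (Atp2a2, Atp2a3 and Atp2b4), against 30.1% of coding genes. Cover with DMSO was higher by that much at 0 pump genes, against 3.07%. The median covered percent over the 5 genes was 9.66% with DMSO and 53.3% with A939572, and over all coding genes 2.24% and 0.446%. The 5 genes are too few to set these shares apart from those of all genes.

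With peaks at q of at most 0.05 alone, 0 pump genes were marked with DMSO (1.33% of coding genes) and 2 with A939572, Atp2a2 and Atp2a3 (19.6%). Cover with A939572 was then at least 25 points higher at 3 genes, Atp2a2, Atp2a3 and Atp2b1 (26.3% of coding genes). Atp2b4 left this group and Atp2b1 joined it. At this cutoff control peaks covered 11.1 Mb of the genome and inhibitor peaks 153 Mb. Of 21887 coding genes, 0 were at least 25 points higher with DMSO. The cutoff thus left little room for a difference in that direction.

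Stricter and looser rules gave other counts. One rule read the first 5 kb of each gene. Where the strand is unknown it took the better covered 5 kb end, in each library separately, also for the shares of coding genes. By it 2 pump genes were marked with DMSO, Atp2a2 and Atp2b1 (13.1% of coding genes), and 4 with A939572, all but Atp2a1 (36%). Cover was at least 25 points higher with A939572 at 3 pump genes, Atp2a3, Atp2b1 and Atp2b4 (32.7%). By this rule Atp2a2 was not among them. With 80% of the gene body as the threshold 0 were marked with DMSO (1.49%) and 1, Atp2a2, with A939572 (14.8%). Any covered base was found at 5 pump genes with DMSO (55.3%) and at 4 with A939572 (51.4%). A difference of at least 50 points in favour of A939572 was seen at 1, Atp2a2 (15.3%). No pump gene held a peak with −log10 q of at least 5 or with a fold of at least 3, so 0 were marked with A939572, where 11% and 10.6% of coding genes were.

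**Figure D1:**
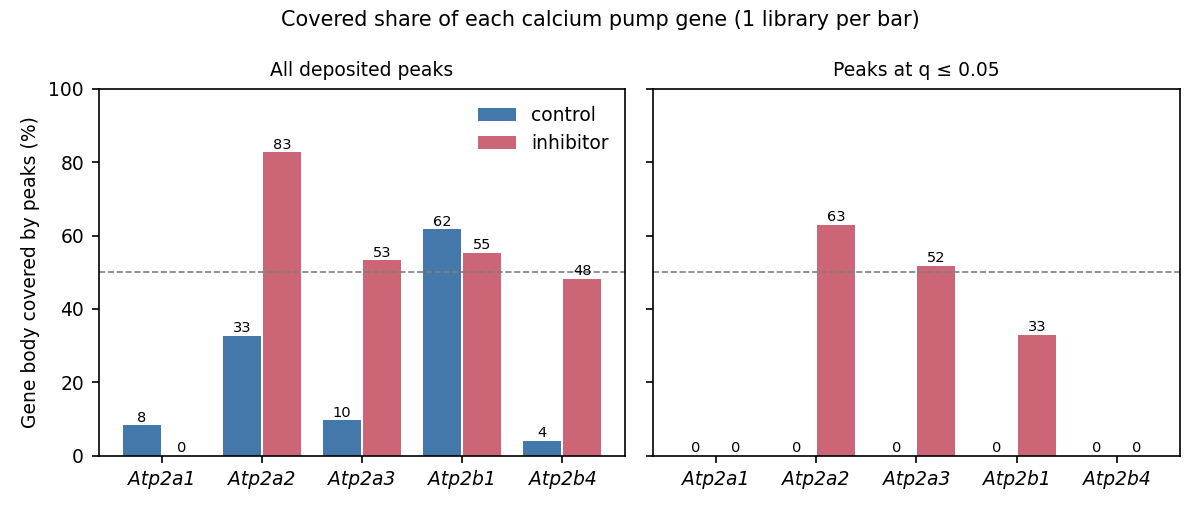
Percent of each gene body under peaks (y axis) for the 5 pump genes, control in blue and inhibitor in red, with all deposited peaks at left and peaks at q of at most 0.05 at right; each bar is 1 library and the dashed line is the 50% threshold. With all peaks Atp2b1 stands at 61.7% and 55.4%, and at q of at most 0.05 every control bar is at 0.

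Atp2a2 encodes SERCA2, the widely expressed pump of the endoplasmic reticulum (chromosome 5, 122453513 to 122502225, mm10). It was covered over 32.6% with DMSO and 82.8% with A939572, the highest inhibitor value of the 5. Of coding genes, 11.6% were covered at least as far with DMSO and 13.9% with A939572. Its strand is not in the tables used here, so positions are given from the upper coordinate. The widest control peak, of 11.2 kb, ran from 0.665 to 11.9 kb from that edge, and 3 more control peaks of 1.27 to 1.78 kb lay farther in.

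One inhibitor peak of 30.6 kb began 0.086 kb from the upper edge of Atp2a2 and reached 30.7 kb. It had a fold of 2.90 and a −log10 q of 4.70, and 7.95% of inhibitor peaks had a q as strong. Another 3 inhibitor peaks, weaker and 1.66 to 5.25 kb wide, followed towards the lower edge, with −log10 q from 0.240 to 0.550. All 15.9 kb under control peaks also lay under inhibitor peaks, which covered another 24.4 kb. Over the 50% of the gene next to the upper edge the cover was 51.2% and 99.6%, and over the rest 14.1% and 65.9%. In the better covered 5 kb end the lists were close with all deposited peaks, at 86.7% and 98.3%, and far apart at q of at most 0.05, at 0% and 98.3%.

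Atp2a3 encodes SERCA3, the pump known from blood cells, platelets and some epithelia (chromosome 11, 72961169 to 72993043, plus strand). It was covered over 9.66% with DMSO and 53.3% with A939572. The 2 control peaks, of 1.61 and 1.47 kb, had a −log10 q of 0, a q of 1. An inhibitor peak of 18.3 kb (chr11:72959339-72977672) began 1.83 kb before the 5′ edge and ended 16.5 kb into the gene, with a fold of 2.87 and a −log10 q of 3.92. It took in both control peaks. In the inhibitor list the 5′ 50% of Atp2a3 was covered over 100% and the 3′ 50% over 6.57%, against 17.4% and 1.93% with DMSO.

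Atp2a1 encodes SERCA1, the pump of fast-twitch skeletal muscle (chromosome 7, 126445858 to 126463103, minus strand). It was covered over 8.24% with DMSO, by 1 peak of 1.42 kb with a q of 1 in the middle of the gene, and over 0% with A939572. Atp2a1 was the sole pump gene of the 5 with no inhibitor peak. The genes on either side were covered with A939572. Sh2b1, an adaptor of receptor signalling 3.89 kb away, stood at 14.1% and 100%, and its peak ended 1.28 kb before the start of Atp2a1. Rabep2, an endocytosis factor whose gene overlaps the 3′ end of Atp2a1, stood at 9.47% and 34.6%. Of 11 skeletal muscle genes, 0 were marked with DMSO (5.47% of all coding genes) and 1 with A939572 (26.1%), Mylpf, which overlaps another coding gene. Of the 11, 9 had no peak in either list, where 32.4% of coding genes had none.

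**Figure D2:**
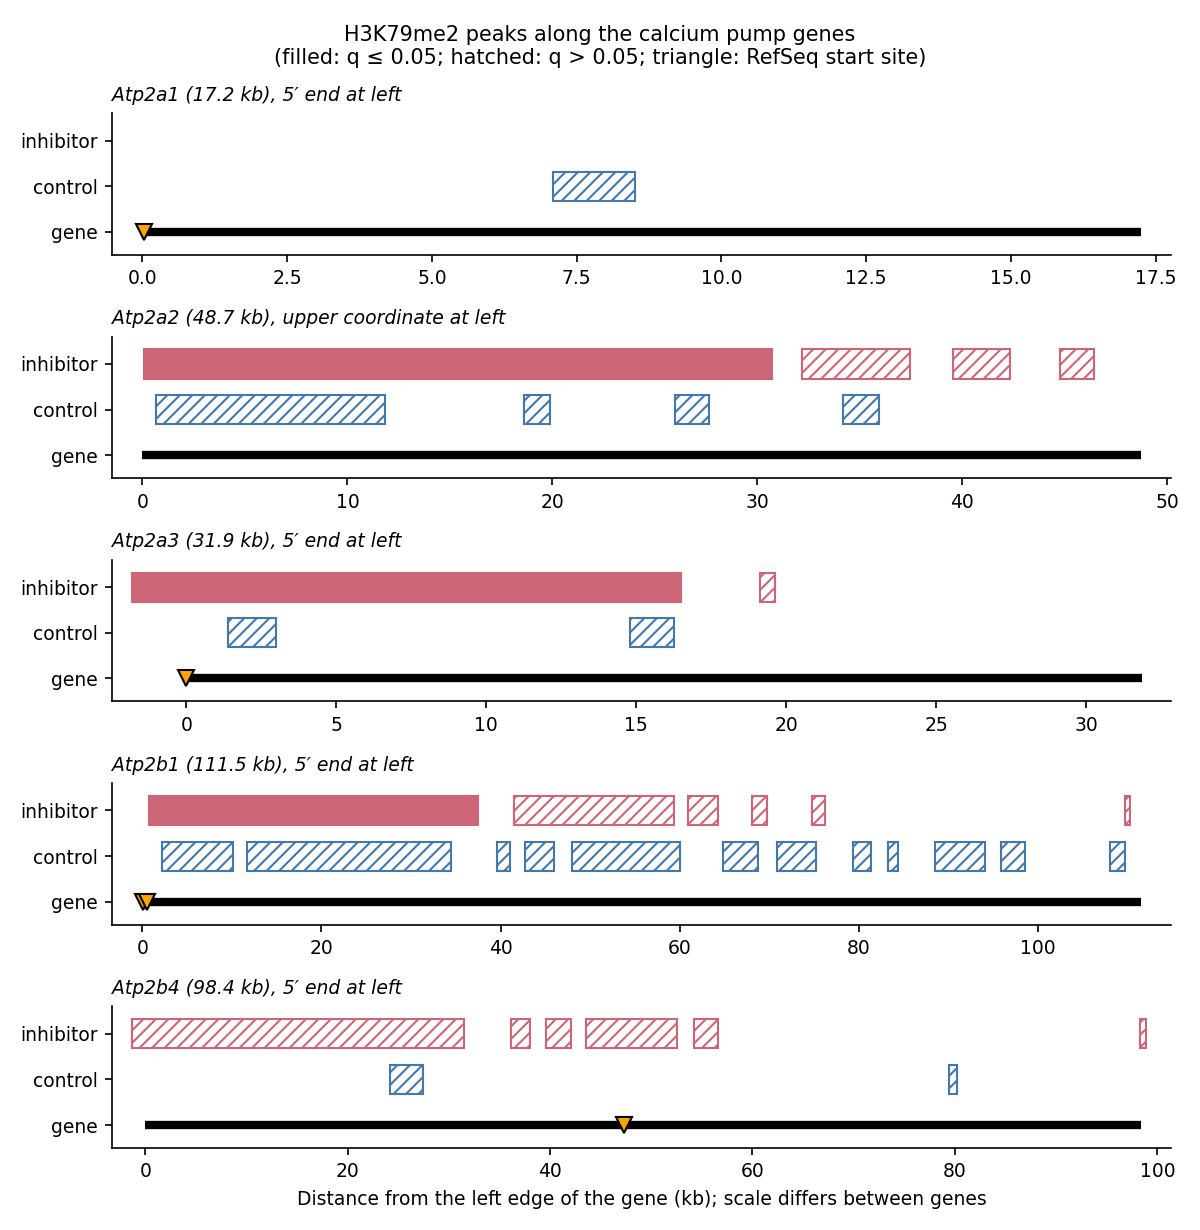
Peaks along the 5 pump genes, drawn in kb from the 5′ edge (from the upper coordinate for Atp2a2), with filled boxes for q of at most 0.05, hatched boxes for weaker peaks and triangles for RefSeq start sites. The 3 filled boxes are inhibitor peaks of 30.6 kb at Atp2a2, 18.3 kb at Atp2a3 and 36.7 kb at Atp2b1, and no control box is filled.

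Atp2b1 encodes PMCA1, the plasma membrane pump found in most cells (chromosome 10, 98914630 to 99026143, plus strand, 111.5 kb). It went the other way by total cover, at 61.7% with DMSO and 55.4% with A939572, a difference of −6.29 points. In the control list 3.22% of coding genes were covered at least as far. Its 12 control peaks were strung along the whole gene, from 1.22 to 22.7 kb wide, with −log10 q of at most 0.0627. Its 6 inhibitor peaks were weighted to the 5′ part. The first, of 36.7 kb, ran from 0.775 to 37.5 kb past the 5′ edge with a fold of 2.34 and a −log10 q of 1.75.

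Within Atp2b1 the sign of the difference depended on position. The 5′ 50% was covered over 77.2% with DMSO and 91.4% with A939572, and the 3′ 50% over 46.2% and 19.4%. When the gene was cut into 10 equal bins, control peaks covered 35.9% of the eighth and 67.1% of the ninth, and inhibitor peaks 0% of each. In all, 46.3 kb lay under peaks of both lists, 67.3% of the control length and 74.97% of the inhibitor length. Control peaks alone covered 22.5 kb and inhibitor peaks alone 15.5 kb. With peaks at q of at most 0.05 the gene stood at 0% and 32.9%, and in its first 5 kb, with all peaks, at 56.5% and 84.5%.

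Weak control peaks also lay outside this gene. Between Atp2b1 and the next coding gene on the lower side, Ccer1, control peaks covered 19.1% of 1219.7 kb and inhibitor peaks 0.451%. On the other side, in the 80.9 kb before Poc1b, a centriole protein gene, they covered 11.6% and 0%. The cover of Atp2b1 with DMSO was above that of its flanks, and all of it came from peaks that missed q of 0.05.

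Atp2b4 encodes PMCA4, another widely expressed plasma membrane pump (chromosome 1, 133702674 to 133801059, minus strand). It was covered over 4.10% with DMSO and 48.2% with A939572, just under the threshold for a marked gene. The 2 control peaks, of 0.831 and 3.21 kb, had a q of 1. The widest of 6 inhibitor peaks, 32.8 kb (chr1:133769547-133802326), began 1.27 kb before the 5′ edge and reached 31.5 kb, and another of 9.04 kb lay over the inner start site shown above. Neither passed q of 0.05: their −log10 q was 0.854 and 0.170 and their fold 1.96 and 1.67. In the first 5 kb Atp2b4 was covered over 0% and 100%.

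The peak at Atp2b4 was slightly wider than that at Atp2a2 and weaker by q. Of inhibitor peaks, 4.41% were at least as wide as the Atp2b4 peak and 22.4% had a q at least as strong. At Atp2a2 these shares were 4.87% and 7.95%, at Atp2a3 8.96% and 9.52%, and at Atp2b1 3.70% and 16.3%. Width and strength of the 4 leading peaks therefore gave different orders.

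The 4 covered genes had their inhibitor peaks nearer 1 end. In the inhibitor list the 5′ 50% of Atp2b4 was covered over 84.3% and the 3′ 50% over 12.1%. Over 11080 coding genes of at least 10 kb with a known strand, the mean cover of the 5′ 50% was 17.2% with DMSO and 37.3% with A939572, and of the 3′ 50% 9.53% and 21.5%. The inhibitor mean was 43.6% in the first of 10 bins and 15.1% in the last.

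**Figure D3:**
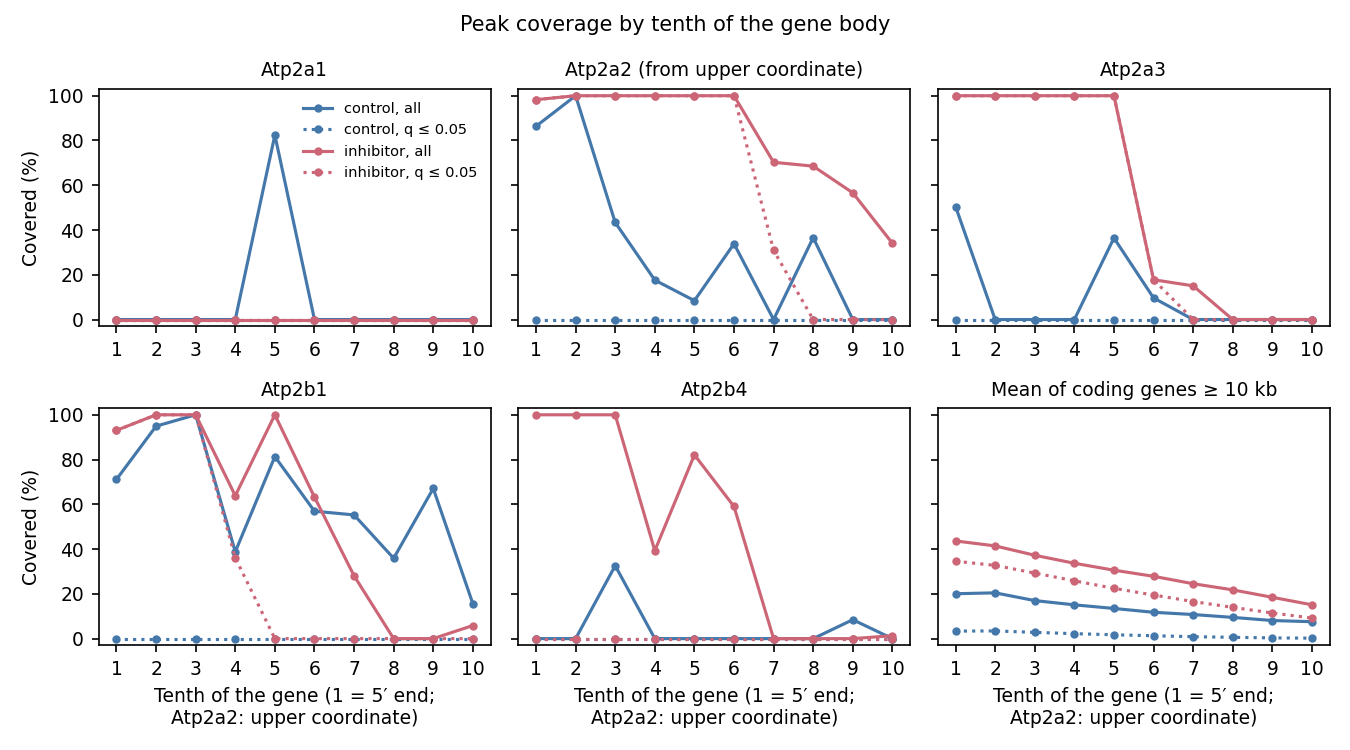
Percent covered (y axis) in each of 10 equal bins of the gene from its 5′ end (from the upper coordinate for Atp2a2), control in blue and inhibitor in red, solid for all peaks and dotted for peaks at q of at most 0.05; the last panel is the mean of 11080 coding genes. Inhibitor cover is at 100% over the first 5 bins of Atp2a3, and control cover at Atp2b1 is still 67.1% in the ninth.

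Order by covered percent differed between the libraries. In the control list it was Atp2b1, Atp2a2, Atp2a3, Atp2a1 and Atp2b4. In the inhibitor list it was Atp2a2, Atp2b1, Atp2a3, Atp2b4 and Atp2a1. With no replicates it is unknown which neighbours in these orders differ beyond their spread; Atp2a3, Atp2a1 and Atp2b4 lay within 4.10 to 9.66% with DMSO, and Atp2b1, Atp2a3 and Atp2b4 within 48.2 to 55.4% with A939572.

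Genes that flank the pumps were not reached by the pumps' peaks in either list. Anapc7, a subunit of the anaphase-promoting complex 8.60 kb from Atp2a2, was covered over 19.9% with DMSO and 67.2% with A939572. Ift81, an intraflagellar transport gene on the other side of Atp2a2, stood at 11.4% and 0%. Lax1, an adaptor of lymphocyte signalling 9.65 kb from Atp2b4, stood at 18.4% and 79.99%, and Optc on the far side at 0% and 0%. Zzef1 and P2rx1, an ATP-gated channel, on either side of Atp2a3, stood at 8.10% and 25.8% and at 4.79% and 24.9%. Ccer1 held no peak, and Poc1b stood at 12.6% and 15.7%.

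The other 4 calcium pumps of this family had little or no cover. Atp2b2 and Atp2b3, PMCA genes known mainly from nervous tissue, were covered over 0% and 0.136% and over 0% and 0%. Atp2c2, a Golgi pump of secretory epithelia, held no peak in either list; 32.4% of coding genes held none. Atp2c1, the widely expressed Golgi pump SPCA1, was covered over 2.66% with DMSO and 14.4% with A939572. Its 3 inhibitor peaks lay 26.7 to 49.8 kb past the 5′ edge, the widest 9.62 kb with a −log10 q of 0.629, and none overlapped a control peak.

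Regulators and partners of the pumps were read from lists of names, chosen with earlier results of these data known. They were set against the 30.1% of all coding genes that were at least 25 points higher with A939572 and the 3.07% that were so with DMSO. All coding genes here include the 32.4% with no peak in either list. Of the 18 T-lineage genes, 13 were also at least 25 points higher with A939572, so high shares are not particular to the calcium lists. Of 11 measured SERCA regulators and luminal partners, 3 were higher with A939572, a share near that of all genes, and 0 with DMSO, with a median difference of 0 points, as over all coding genes. These were Vmp1, an endoplasmic reticulum protein that acts on SERCA (45.4% and 92.2%), Tmx1, a redox protein of that membrane (14.1% and 59.5%), and Pln (26.6% and 55.7%). Pln, the gene of phospholamban of heart muscle, overlaps another coding gene and was covered by weak peaks alone. At q of at most 0.05 Pln stood at 0% and 0%. Tmem64, at 80.1% and 100% with all peaks, then stood at 0% and 100% and took its place among the 3. Of the 11, 6 held no peak in either list, where 32.4% of coding genes held none, among them Sln, the sarcolipin gene of muscle.

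Of 10 PMCA subunits and partners, 8 were at least 25 points higher with A939572 (30.1% of all coding genes) and 0 with DMSO (3.07%), with a median difference of 32.5 points. Bsg, basigin, a subunit of PMCA complexes, was covered over 0% and 95.9%, and its relative Nptn, neuroplastin, which overlaps another coding gene, over 58.3% and 97.3%. Pdzd11, a partner of the PMCA tail, stood at 0% and 62.5%. Nos1, the neuronal nitric oxide synthase, held no peak.

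Of 17 proteins of the endoplasmic reticulum calcium store, 10 were at least 25 points higher with A939572 (30.1% of all coding genes) and 0 with DMSO (3.07%), with a median difference of 39.1 points. The largest were Tmco1, a channel that releases calcium from the store (5.57% and 84.3%), Calr, the calcium buffer calreticulin (34.7% and 100%), and Herpud1, a stress-induced degradation factor (13.9% and 79.1%). Of 7 genes of store-operated calcium entry, which refills the store together with the SERCA pumps, 6 were higher by that much, against the same 30.1%, and 0 lower (median 42.0 points). Orai3 and Orai1, channel pores, stood at 0% and 100% and at 14.5% and 100%, and Saraf, their brake, at 37.1% and 97.9%.

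Of 20 exchanger and mitochondrial uptake genes, 9 were at least 25 points higher with A939572 (30.1% of all coding genes) and 0 with DMSO (3.07%), with a median difference of 2.61 points. At q of at most 0.05 the number was 7, against 26.3% of coding genes. The largest were Smdt1, a subunit of the mitochondrial uniporter (0% and 100%), Vdac2, an outer membrane channel that overlaps another coding gene (14.0% and 78.1%), and Mcur1 (1.91% and 58.0%). Slc8a1, the sodium-calcium exchanger gene, stood at 21.4% and 4.74% by weak peaks alone. Of 18 other P-type ion pump genes, 6 were higher, a share near the 30.1% of all coding genes, and 0 lower (median 0 points). Among the 6 were Atp13a1 (13.7% and 75.5%) and Atp13a3 (42.9% and 96.7%).

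**Figure D4:**
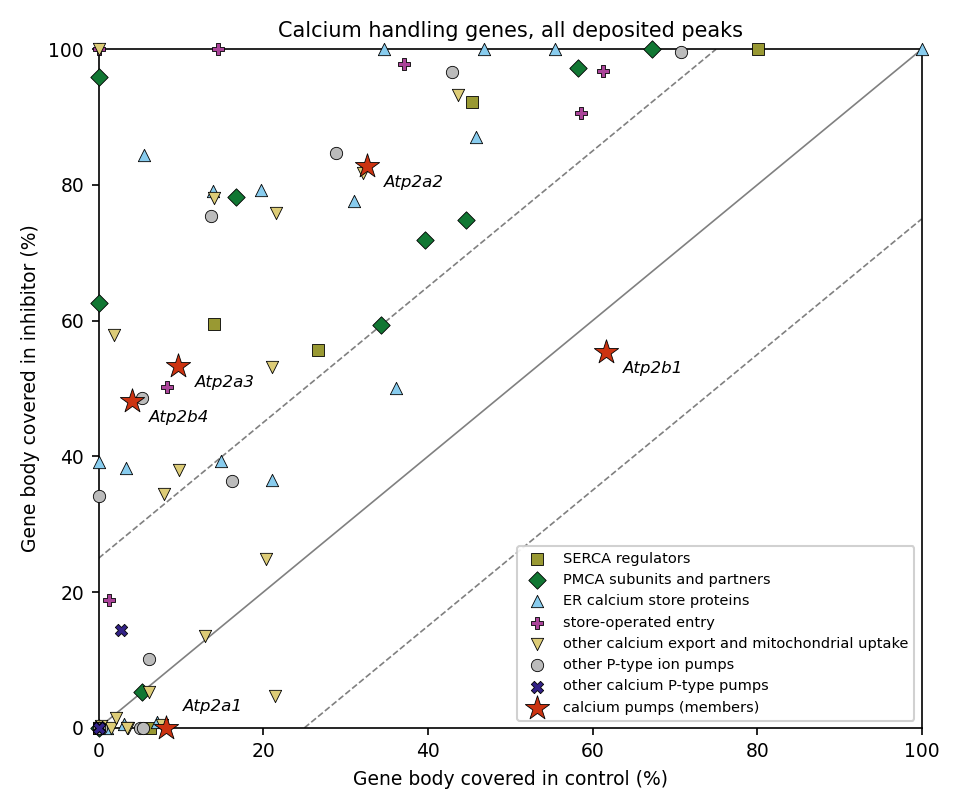
Percent of the gene body covered in control (x axis) and inhibitor (y axis) for the pump genes (stars) and 7 lists of related genes, 1 point per gene, all deposited peaks; the solid line marks equal cover and the dashed lines a difference of 25 points. Atp2a2, Atp2a3 and Atp2b4 lie above the upper dashed line, and Atp2b1 and Atp2a1 lie between the dashed lines.

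Genes most like each pump were found by the distance in 4 covered percents (both libraries, all peaks and peaks at q of at most 0.05) among genes of 0.67 to 1.5 times its length. Atp2a2 was closest to Mbtd1, a chromatin reader, at 2.33 points, and Scaf4 at 3.10 points. Atp2a3 was closest to Gclc, an enzyme of glutathione synthesis, at 1.66 points, and Impact at 2.29 points. Atp2b4 was closest to Nol4l at 2.31 points and Zhx2 at 2.43 points. Atp2a1, with almost no cover, had 2012 of 4771 genes within 10 points, the nearest being Htr5b and Tagln3. Atp2b1 had none of 2118 genes within 10 points. Its nearest were Fcho2, at 13.1 points, covered over 50.3% and 49.4%, and Slc4a7, at 15.6 points. These rest on 2 libraries and describe likeness of cover alone.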

How the data were processed

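The 2 ChIP libraries were used, 1 per condition, each as 1 broad peak list. The submitters' processing notes name BWA, MACS2 2.1.0 and mm10 without roles; the caller's options and its use of the input are not stated there. Per the file columns, each deposited peak has the authors' fold enrichment (a ratio to a background that is not stated), −log10 p and −log10 q. It also has a deposited score, which was found to be 10 times −log10 q without its decimals. MACS2 writes such values for a broad peak as averages along it. The lowest deposited −log10 p was 1.00 in both lists.

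Peaks were joined where they touched and set against RefSeq gene bodies of GRCm38.p6, the assembly mm10 names, in Python 3.11.15 (numpy 2.4.6, pandas 2.3.3); figures used matplotlib 3.10.9. Strand came from RefSeq start windows, at hand for part of the genes. Gene models carry no exons here, so peaks are not placed in exons, introns or UTRs. The coverage functions were tested on simulated lists. Of 158 list entries, 156 were matched; Erln and Arln were not measured.

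The pump genes, lists and alternatives were chosen with earlier results of these data known. Named genes were the 5 pumps, their relatives and nearest coding neighbours, up to 3 genes per list and direction differing by at least 25 points, and the 2 most alike genes per pump. Nptn, Nos1, Sln, Slc8a1, Bcl11b, Ptcra, Cd44 and Kit were named after their values had been seen. Some genes that this rule names are not reported here. Alternatives were q of at most 0.05, −log10 q of at least 5, fold of at least 3, merging within 1 kb, a 5 kb gene end, equal covered length, other thresholds and, added later, merging within 5 kb.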

Additional observations from a re-analysis of the deposited data

How the results depend on the processing

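No pump gene held a peak at a −log10 q of 5 or more, or at a fold of 3 or more. Under those settings 0 genes were therefore marked with DMSO, 0 with A939572, and 0 were higher with A939572. Of all coding genes 11% and 10.6% were marked with A939572. The shares of coding genes marked with DMSO or higher with A939572 are not given, so those 2 counts have nothing to be set against. At q of at most 0.05, 0 genes were marked with DMSO, and at 80% of the gene body 0 with DMSO and 1 with A939572. In the 5 kb end 2 were marked with DMSO, and with any covered base 5. At a difference of 50 points 1 gene was higher with A939572. For Atp2b1 the difference was −6.29 points with all peaks, 32.9 points at q of at most 0.05 and 28.0 points in the first 5 kb. Atp2b1 held no control peak at q of at most 0.05, so its difference there could not be negative. The Atp2b1 difference was −18.6 points with peaks within 5 kb merged, a setting chosen after seeing the data. That setting raised the genes marked with A939572 from 3 to 4, with Atp2b4 added, whose difference went from 44.1 to 53.6 points. The share of all coding genes marked under it is not given, so this count has nothing to be set against. The Atp2a2 difference was 11.6 points in its better covered 5 kb end, and that of Atp2b4 was 0 points at q of at most 0.05. Merging within 1 kb changed no pump value, because no 2 peaks of the same list at these genes lay that close. Equal covered length moved Atp2a2 alone, to 52.8 points. The lists covered 234.8 Mb with DMSO and 233.6 Mb with A939572 to begin with, and 123848 of 124962 control peaks were kept. These 2 settings could therefore change little. No paired analysis was possible because each condition has 1 ChIP library. Read depth is unknown, so a missing peak does not show that the mark is absent.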
